A study of Mus musculus with 24 samples.

Results

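The regions described here are the H3K27ac peaks of mouse retina at postnatal day 17 (P17) that do not share a single base with an H3K27ac peak at postnatal day 2 (P2). They number 3544 of the 29909 P17 H3K27ac peaks, or 11.8%, and they are called P17-only peaks below. The remaining 26365 P17 peaks, each of which overlapped a P2 peak by at least 1 bp, served as the comparison set. Over all 8 deposited peak lists there were 349901 peaks.

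The study profiled wild-type mouse retina at P2 and P17 by CUT&RUN, a method in which an antibody tethers a nuclease to chromatin in intact nuclei so that the DNA around the bound protein is released and sequenced. At each age the labels give 2 libraries for H3K27ac, 2 for H3K4me3, 4 for SOX8 made with 2 antibodies, 2 for SOX9, and IgG controls, which were not analysed here, for 24 libraries in all. No allele, transgene or treatment separates the groups, so age was the only labelled factor. Any difference in preparation, sequencing or peak calling between the ages cannot be told apart from age. Each target and age is represented by 1 peak list, and the SOX8 lists, labelled as combined, do not separate the 2 antibodies. No column names a replicate or gives a height, so no value below carries a replicate error. Intervals are 95% Wilson intervals for a share and 95% Newcombe intervals for a difference of shares. They cover counting error over peaks, genes or, for motifs, start windows only.

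Acetylation of histone H3 at lysine 27 marks active promoters and active enhancers, whereas trimethylation at lysine 4 is concentrated at promoters. Between the early postnatal days and the third week the mouse retina completes the birth and maturation of rods, bipolar cells and Müller glia, and builds photoreceptor outer segments and ribbon synapses, and the eyes open. SOX8 and SOX9 are related HMG-box transcription factors, and in the mature retina SOX9 is best known as a Müller glia factor. The nuclei came from whole retina, so more cells of a type and more signal per cell cannot be told apart.

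Some of the gene starts that lay in P17-only peaks belonged to genes of mature retinal neurons, and the sequences at the starts of 5 of them are shown because acetylation, and in places H3K4me3, was listed there only at P17. The first 4 are the genes of the retinal lists with the widest P17-only peak over a start. Gngt1 encodes the gamma subunit of rod transducin, Cacna1f the pore subunit of the calcium channel of photoreceptor ribbon synapses, Cacnb2 the beta subunit of that channel, and Hlf a clock-regulated bZIP factor. Cabp5, a calcium-binding protein of bipolar cells, was added after its values were seen. In all, 8 list genes had a start in a P17-only peak, and the Cabp5 peak was the narrowest of these. Mef2c, Gabrr1 and Rgs7 are not printed. The windows come from RefSeq annotation of GRCm38.p6 and run from 250 bases before the start to 50 after it, in the direction of transcription. Capitals mark TAATCC, the core bound by CRX and OTX2, on either strand (GGATTA on the other one), or TAATTA, a general homeodomain core.

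Gngt1, chr6:3993758-3994057, plus strand: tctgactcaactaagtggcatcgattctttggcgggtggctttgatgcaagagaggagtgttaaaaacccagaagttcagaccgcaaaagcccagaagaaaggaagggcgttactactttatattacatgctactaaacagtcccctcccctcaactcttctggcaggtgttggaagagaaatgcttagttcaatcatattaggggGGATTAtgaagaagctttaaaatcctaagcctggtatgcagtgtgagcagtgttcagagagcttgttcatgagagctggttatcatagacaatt
Cacna1f, chrX:7606853-7607152, plus strand: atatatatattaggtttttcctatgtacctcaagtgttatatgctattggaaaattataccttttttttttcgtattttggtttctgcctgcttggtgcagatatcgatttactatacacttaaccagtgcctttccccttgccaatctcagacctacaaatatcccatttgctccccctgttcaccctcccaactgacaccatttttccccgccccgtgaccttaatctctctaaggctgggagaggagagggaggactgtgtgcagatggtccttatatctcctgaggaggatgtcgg
Cacnb2, chr2:14823842-14824141, plus strand: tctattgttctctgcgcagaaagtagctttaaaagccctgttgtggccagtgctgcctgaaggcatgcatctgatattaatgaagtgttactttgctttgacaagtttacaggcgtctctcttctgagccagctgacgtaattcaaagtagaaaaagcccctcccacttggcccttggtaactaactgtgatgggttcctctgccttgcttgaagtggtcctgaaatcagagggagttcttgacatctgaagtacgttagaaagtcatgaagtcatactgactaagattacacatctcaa
Hlf, chr11:90390868-90391167, minus strand: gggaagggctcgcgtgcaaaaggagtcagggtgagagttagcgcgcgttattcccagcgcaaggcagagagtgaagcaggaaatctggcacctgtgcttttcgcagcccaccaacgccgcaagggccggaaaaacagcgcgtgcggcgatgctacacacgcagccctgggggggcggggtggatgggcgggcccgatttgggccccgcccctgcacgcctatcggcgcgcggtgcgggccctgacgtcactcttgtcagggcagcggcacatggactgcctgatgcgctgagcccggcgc
Cabp5, chr7:13397905-13398204, plus strand: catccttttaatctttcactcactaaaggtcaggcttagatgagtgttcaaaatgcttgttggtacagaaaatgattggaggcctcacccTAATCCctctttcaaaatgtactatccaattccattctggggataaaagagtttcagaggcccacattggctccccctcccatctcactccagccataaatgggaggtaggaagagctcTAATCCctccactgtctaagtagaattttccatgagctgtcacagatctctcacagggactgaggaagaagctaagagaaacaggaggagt

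The Cabp5 window held TAATCC at 2 places and the Gngt1 window held it at 1, on the other strand. The first of the 2 in the Cabp5 window lay outside the P17-only peak, which begins at 13398036. Neither core was found in the other windows printed, nor in the Mef2c, Gabrr1 and Rgs7 windows that are not printed. The Hlf window was rich in G and C (67.3%) with 30 CpG dinucleotides, whereas the Gngt1, Cacna1f, Cacnb2 and Cabp5 windows had between 43.7% and 44.7% G and C and at most 5 CpG.

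Over all RefSeq genes, 288 start windows of 259 genes had their start in a P17-only peak, against 11874 windows of 9817 genes in the comparison peaks. Windows in P17-only peaks had a median G and C content of 55.8% and 12 CpG, compared with 61.0% and 21 CpG in the comparison peaks and 52.7% and 7 CpG over all 32851 windows. The composition differed with H3K4me3. The 126 windows in P17-only peaks with P17 H3K4me3 had a median of 61.3% and 22 CpG, and the 162 without it had 51.8% and 6 CpG, next to 53.0% and 6 CpG for comparison windows without H3K4me3.

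TAATCC lay in 31 of the 288 windows (10.8%, 7.69 to 14.9%), in 6.27% of the comparison windows and in 7.06% of all windows. The difference from the comparison windows was 4.50 points (1.39 to 8.63). Some genes gave several windows, which can overlap, so windows are not independent and the motif intervals may be too narrow. These intervals were not adjusted for the number of motifs. Among windows without P17 H3K4me3 the motif was present in 24 of 162 (14.8%) and in 9.14% of comparison windows, a difference of 5.67 points (0.84 to 12.1). Among windows with P17 H3K4me3 it was present in 7 of 126 (5.56%) and in 5.64% of comparison windows. Windows without H3K4me3 were 162 of the 288 and 2122 of the 11874 comparison windows, so the difference over all windows also reflects this mix. TAATTA was found in 3.47% of windows in P17-only peaks, 2.48% of comparison windows and 5.29% of all windows. The MAF core TGCTGA was found in 20.8%, 15.2% and 19.5%, and the E-box CANNTG in 69.8%, 62.6% and 72.3%. The SOX-type letters AACAAT lay in 8.33%, 5.63% and 10.7%, and ACAAAG in 14.6%, 13.4% and 18.7%. For TGCTGA the difference was 5.59 points over all windows (1.25 to 10.7) and 1.68 points without H3K4me3 (-4.45 to 8.98), where the interval includes 0. For CANNTG it was 7.15 points over all windows (1.55 to 12.2) and -3.17 without H3K4me3 (-10.7 to 3.36), and for ACAAAG 1.16 (-2.50 to 5.74) and -2.74 (-8.26 to 4.16). For TAATTA it was 0.99 (-0.62 to 3.80) and 0.89 (-1.89 to 5.63), and for AACAAT 2.70 (-0.0047 to 6.49) and 2.35 (-1.82 to 8.22). All motifs were searched on both strands, TAATTA and CANNTG read the same on either, and each motif was searched on its own, so that matches of different motifs may share letters. A match is a description of the letters and not a measured binding site.

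P17-only peaks were of moderate width. Their median was 2557.5 bp, with quartiles of 2017 and 3414.5 bp and a range from 452 to 27810 bp, and 337 of them (9.51%) reached 5 kb. Comparison peaks had a median of 3418 bp, and 30.6% reached 5 kb. A wide peak has more bases with which to touch a P2 peak, so width is tied to the rule that chose the regions and is given as a description only. Together the P17-only peaks covered 10.9 Mb, or 6.26% of the 173 Mb under P17 H3K27ac.

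**Figure D1:**
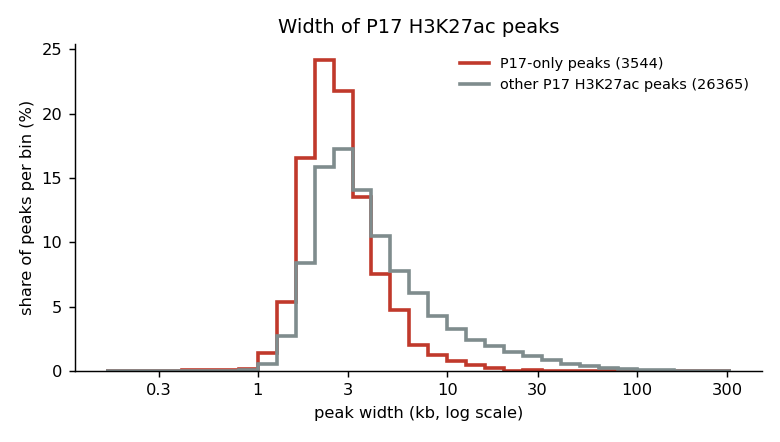
Width of the 3544 P17-only H3K27ac peaks (red) and of the 26365 other P17 H3K27ac peaks (grey). The horizontal axis is width in kb on a log scale and the vertical axis is the share of each set per bin in percent. The red outline lacks the long upper tail of the grey one, with medians of 2557.5 and 3418 bp.

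The P2 list decides membership, and it is far longer than the P17 list. It holds 287845 peaks with a median width of 1166 bp over 525 Mb, so a P17 peak had to fall between many narrow P2 peaks to count as absent. The median gap from a P17-only peak to the nearest P2 peak was 2660 bp (quartiles 1142.75 and 5759.75 bp). Just inside the rule, 77 P17-only peaks lay within 100 bp of a P2 peak. Just outside it, 67 comparison peaks overlapped P2 by 100 bp or less. At the other end, 427 P17-only peaks (12%) lay more than 10 kb from any P2 peak. The comparison peaks had a median of 74.4% of their length covered at P2. When the P2 list was limited to its 29909 widest peaks, 18719 P17 peaks counted as P17-only.

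The widest P17-only peak covered 27810 bp at the 5′ end of Tmem108, a transmembrane protein gene, at chr9:103735621-103763430. Its start lay inside, with P17 H3K4me3 and a P17 SOX9 peak, and neither H3K4me3 nor SOX9 at P2. The nearest P2 H3K27ac peak was 428 bp away. The next, on chromosome 3, lay 319255 bp from the nearest protein-coding gene, Cypt12, and spanned 18830 bp. Rock2, a kinase gene, held one of 17966 bp. On the X chromosome Ammecr1 held one of 17750 bp and Ppef1, a calcium-binding phosphatase gene, one of 17661 bp. A peak of 17574 bp lay 225188 bp from Foxp1, a forkhead factor gene, and carried P17 H3K4me3 without P2 H3K4me3. Marchf1, an ubiquitin ligase gene, Agap1, which encodes a GTPase-activating protein, and the neighbourhoods of Gm38656 and C1rb supplied the rest of the 10 widest, at 15531 to 17308 bp. Of these 10, the Tmem108 peak was the only one over a protein-coding gene start, and 2 carried P17 H3K4me3.

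P17-only peaks rarely carried H3K4me3. A P17 H3K4me3 peak overlapped 188 of the 3544 (5.30%, 4.61 to 6.09%), where 28.5% of all P17 H3K27ac peaks overlapped one and 31.7% of the comparison peaks did. The difference was -26.4 points (-27.3 to -25.4), and 28.9% of comparison peaks overlapped one after weighting to the widths of the P17-only peaks. A P2 H3K4me3 peak overlapped 98 (2.77%) against 28.8%, with 25.7% over all P17 H3K27ac peaks. The rule leaves out P17 peaks that touch P2 H3K27ac. Overlap with P2 H3K4me3 or P2 SOX peaks that lie there is therefore tied to the rule and is given as a description only. Of all P17 H3K27ac peaks with P17 H3K4me3, 86.9% also had P2 H3K4me3, so the P17 share is tied to the rule in part. H3K4me3 at both ages overlapped 2.43% of P17-only and 27.8% of comparison peaks. P17 H3K4me3 without P2 H3K4me3 overlapped 2.88% and 3.85%, a difference of -0.97 points (-1.53 to -0.33). Neither age showed H3K4me3 at 3344 P17-only peaks (94.4%), compared with 67.3% of the comparison peaks. This direction depended on the P2 list: against its 29909 widest peaks alone, the P17-only set had the larger share, by 9.70 points for P17 H3K4me3 and 7.09 points for P2 H3K4me3.

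Where H3K4me3 was present, it was itself often listed only at P17. Of the 188 P17-only peaks with P17 H3K4me3, 102 (54.3%, 47.1 to 61.2%) had no P2 H3K4me3, compared with 1015 of 8350 comparison peaks (12.2%), a difference of 42.1 points (34.9 to 49.1). Over all P17 H3K27ac peaks, 3.73% had P17 and no P2 H3K4me3. Seen from the other mark, 86 of the 1390 P17 H3K4me3 peaks absent at P2 (6.19%) overlapped a P17-only H3K27ac peak, against 100 of the 8239 shared ones (1.21%). Most of the 1390, 1127 of them (81.1%), overlapped a comparison H3K27ac peak. Against the widest P2 peaks alone the difference of 42.1 points became 3.10 points (1.57 to 4.57). Absence of P2 H3K4me3 is tied to the rule, which uses P2 H3K27ac, so these values are a description only.

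Among the 102 with H3K4me3 only at P17, the widest after Tmem108 and the Foxp1 neighbourhood was the 13271 bp peak at Gngt1. It was followed by peaks of 10828 bp at Gorasp2, a Golgi stacking protein gene, and 10500 bp at Ube3a, an imprinted ubiquitin ligase gene. Next was a peak of 8232 bp at the start of Car10, which encodes a carbonic anhydrase-related protein. The Gngt1 and Ube3a peaks lay 678 and 404 bp from the nearest P2 H3K27ac peak. Further starts in this group, named after their values were seen, belonged to Galnt14, Tuba4a, Camk2b, Syt3, Slitrk3, Kcna6, Trpc4, Gpr158 and Abca1. Camk2b encodes a calmodulin-dependent kinase, Syt3 a synaptotagmin, Kcna6 a voltage-gated potassium channel, Trpc4 a cation channel and Abca1 a cholesterol transporter.

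H3K4me3 was listed at both ages at 86 P17-only peaks, so that acetylation alone was listed as P17-only there. The widest were at Dnmbp (12234 bp), Sypl (8638 bp), Zfp503 (8634 bp) and Cpeb3 (8204 bp). Those at Sypl and Zfp503 lay 493 and 22 bp from the nearest P2 H3K27ac peak. Dnmbp encodes a scaffold for dynamin, Sypl a relative of synaptophysin, Zfp503 a zinc finger factor and Cpeb3 an mRNA-binding translational regulator. The start of Bdnf, the neurotrophin gene, also lay in such a peak, of 2360 bp, as did a start of Rora, a nuclear receptor gene, of 6465 bp. Bdnf and Rora were named after their values were seen.

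Few P17-only peaks coincided with SOX8 or SOX9. A P17 SOX8 peak overlapped 14 of them (0.395%, 0.235 to 0.662%), where 6.24% of all P17 H3K27ac peaks and 7.02% of comparison peaks overlapped one, a difference of -6.63 points (-6.98 to -6.23). A P17 SOX9 peak overlapped 25 (0.705%, 0.478 to 1.04%), where 7.71% of all P17 H3K27ac peaks and 8.66% of comparison peaks overlapped one, a difference of -7.95 points (-8.36 to -7.48). After weighting to the widths of the P17-only peaks, the comparison shares were 4.33% for SOX8 and 5.30% for SOX9. P2 SOX8 peaks overlapped 2 (0.0564%) and P2 SOX9 peaks 11 (0.310%), against 9.05% and 17.3% of comparison peaks and 7.99% and 15.2% of all P17 H3K27ac peaks. Both P17 differences kept their direction in every alternative run, including against the widest P2 peaks. Of all P17 H3K27ac peaks with P17 SOX9, 30.9% had no P2 SOX9, and for SOX8 the share was 36.6%. The remainder had a P2 peak of the same factor, so both P17 differences are tied to the rule in part.

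The lower share was not limited to peaks without H3K4me3. Among peaks with P17 H3K4me3, SOX9 overlapped 14 of 188 P17-only peaks (7.45%) and 21.8% of comparison peaks, a difference of -14.3 points (-17.4 to -9.58). For SOX8 the shares were 5.85% and 18.8%. Among peaks without H3K4me3, SOX9 overlapped 11 of 3356 (0.328%) and 2.58%, and SOX8 overlapped 3 (0.0894%) and 1.57%. The median gap to the nearest P17 SOX9 peak was 225717 bp for P17-only peaks and 159168 bp for comparison peaks. Of the 2855 P17 SOX9 peaks, 24 (0.841%) overlapped a P17-only peak, and of the 2400 P17 SOX8 peaks, 14 (0.583%) did.

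**Figure D2:**
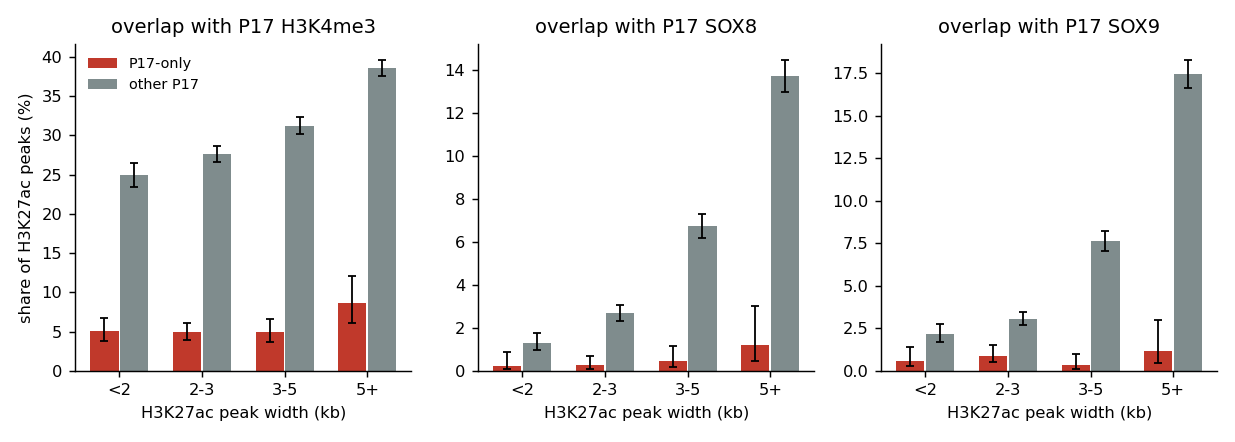
Share of H3K27ac peaks (percent) that overlapped a P17 H3K4me3, SOX8 or SOX9 peak, by H3K27ac peak width class in kb. Red bars are P17-only peaks, grey bars are other P17 peaks, and error bars are 95% Wilson intervals over peaks; each panel has its own vertical scale. In each class the red bar is below the grey one, from 5.09 against 24.9% for H3K4me3 under 2 kb to 1.19 against 17.5% for SOX9 from 5 kb.

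In all, 32 P17-only peaks overlapped a SOX peak at P17, of which 7 had SOX8 alone, 18 SOX9 alone and 7 both. H3K4me3 was present at 20 of the 32, at both ages at 13 and at P17 only at 7. A start of a RefSeq gene lay in 15, and 3 had a SOX8 or SOX9 peak at P2. Most of the SOX overlap was therefore listed at P17 only: 22 of 25 P17-only peaks with SOX9 had no P2 SOX9 (88.0%), against 30.3% of the comparison peaks with SOX9. For SOX8, 13 of 14 had no P2 SOX8 (92.9%), against 36.2%. Absence of P2 SOX peaks is likewise tied to the rule, so these contrasts are a description only.

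The 7 peaks with both factors lay at Zfp503, Lrrc73, Nrp2, Otop2, Atf6b, Relb and Pdgfa. Nrp2 encodes a receptor for semaphorins and VEGF, Otop2 a proton channel, Atf6b a factor of the unfolded protein response, Relb an NF-kappaB subunit, and Pdgfa a growth factor that retinal neurons supply to astrocytes. Of these 7, 5 had H3K4me3 at both ages, and Otop2 and Atf6b had none. The peaks with SOX9 and H3K4me3 further included Tmem108, Hlf, Grin2a, an NMDA receptor subunit gene, Jph3, a junctophilin gene, and the neighbourhood of Adrb1, the beta-1 adrenergic receptor gene. SOX9 without P17 H3K4me3 was found at or near Otop2, Adad2, Prr12, Ppl, Trim67, Btrc, Zmiz2, Atf6b, Fmnl1 and Efcab15, in peaks of 1728 to 3097 bp, and in an 11th at Nrxn2, which encodes the synaptic adhesion protein neurexin 2. SOX8 without SOX9 was found at Cpeb3, Mmp17, Nptx1, Atf3, Cbfa2t3, Tmem59l and Ttc34.

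P17-only peaks were mostly away from gene starts. Starts were taken for 17491 of 21883 protein-coding genes, and the 1063 P17 H3K27ac peaks of chromosome 18, among them 110 P17-only peaks, were left out of every share that uses a start. A start lay within 1 kb of the centre of 149 of 3434 P17-only peaks (4.34%, 3.71 to 5.07%), where 17.6% of all P17 H3K27ac peaks and 19.4% of comparison peaks had one, a difference of -15.1 points (-15.9 to -14.2). A start lay inside 182 (5.30%), against 28.2% of comparison peaks and 25.5% over all. Against the widest P2 peaks alone this difference turned to 14.6 points in favour of the P17-only set. With P17 H3K4me3, 89 of 182 P17-only peaks held a start (48.9%), compared with 78.5% of comparison peaks with H3K4me3. Without it, 2.86% and 4.61% did.

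P17-only peaks were also less often in genes. A protein-coding gene overlapped 2479 of them (69.9%) and 83.9% of the comparison peaks, so that 1065 (30.1%) lay outside genes against 16.1%, a difference of 13.9 points (12.4 to 15.5). The median distance from centre to start was 24107 bp for P17-only peaks and 22951 bp for comparison peaks. Without P17 H3K4me3, P17-only peaks were the nearer ones, at 26042 bp against 40195.5 bp.

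With a gene counted where a peak lay in it or within 5 kb of it, 2231 of 21883 protein-coding genes (10.2%) had a P17-only peak, and 57.0% had any P17 H3K27ac peak. A single P17-only peak accounted for 1734 of the 2231, and 49 had 5 or more. Another P17 H3K27ac peak was present at 1953 of them (87.5%). Genes with a P17-only peak were long, with a median of 46.2 kb against 21.3 kb for genes with comparison peaks only. The share with a P17-only peak went from 3.74% of genes under 10 kb to 8.38% from 10 to 30 kb, 15.4% from 30 to 100 kb and 25.2% from 100 kb, and this length dependence applies to the lists below.

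H3K4me3 listed at P17 and not at P2 accompanied 264 of the 2231 genes (11.8%, 10.6 to 13.2%), 6.90% of genes with comparison peaks only, and 5.0% of all genes. H3K4me3 listed at P2 and not at P17 accompanied 1.17% and 2.86%. A P17 SOX9 peak lay at 23.8% of the genes with a P17-only peak, 26.3% of genes with comparison peaks only and 15.7% of all genes.

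The genes with most P17-only peaks were long ones. Car10 had 18, which were 78.3% of its 23 P17 H3K27ac peaks and covered 71.3 kb of a 505 kb gene; the one over its start, at chr11:93096580-93104811, carried H3K4me3 at P17 and not at P2. Cadm2, which encodes a synaptic adhesion molecule, also had 18, of 44. Auts2, a neurodevelopmental regulator gene, had 13 of 20. Dmd, the dystrophin gene, and Pcdh15, whose protein sits at hair cell tips, had 11 each, of 21 and 24. Cacnb2 had 10 of 22, Marchf1 and Xkr6 had 9, of 13 and 14, and Ntm, a neural adhesion gene, and Rabgap1l had 8, of 47 and 21. In Car10 and Cacnb2 no SOX8 or SOX9 peak was listed at P17.

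**Figure D3:**
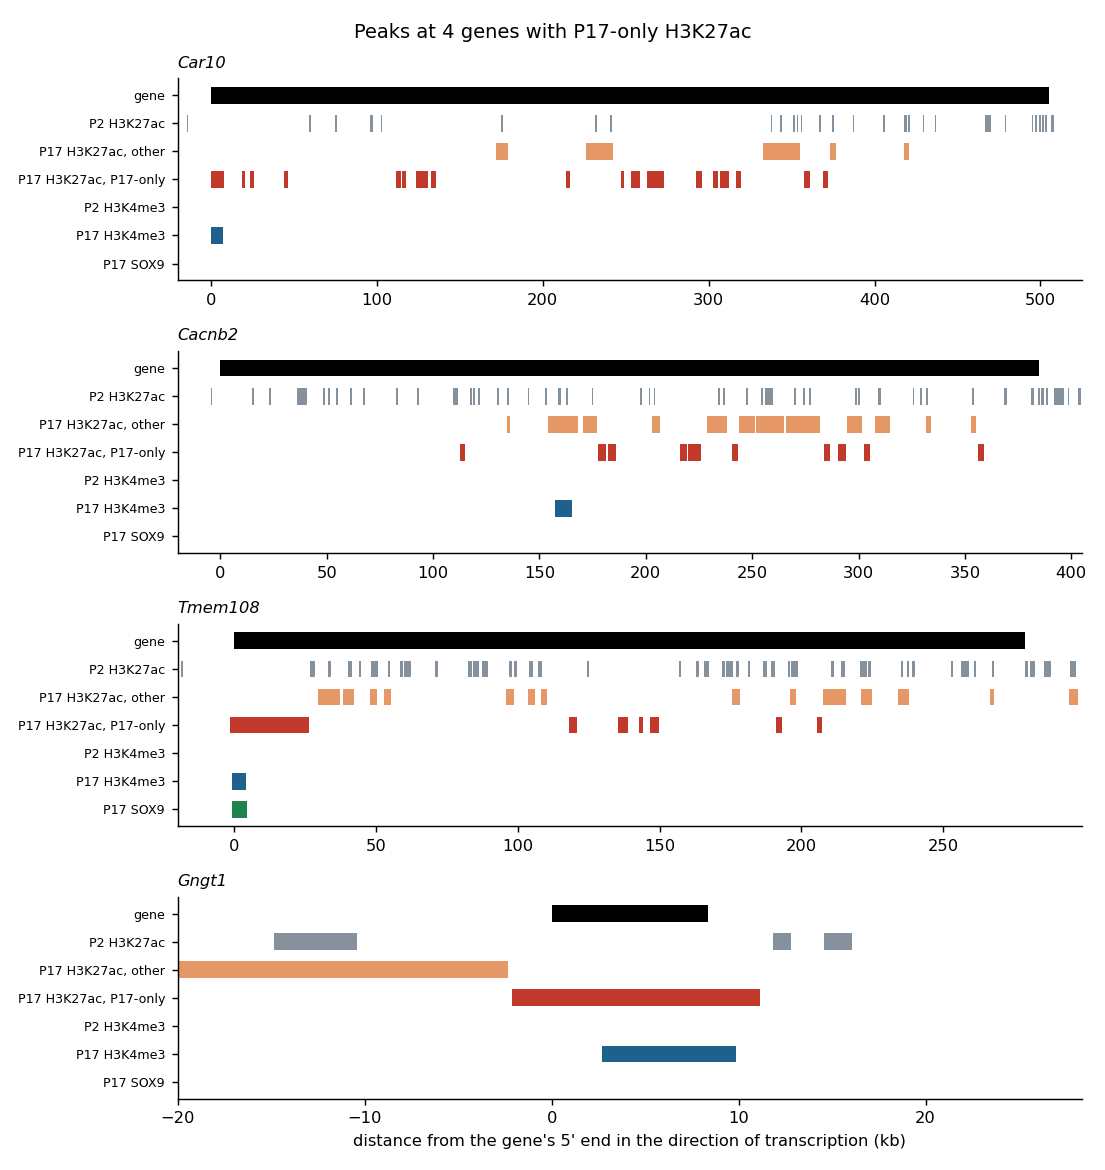
Peaks at Car10, Cacnb2, Tmem108 and Gngt1 by list, against distance in kb from the 5′ end of the gene in the direction of transcription; each bar is 1 peak, black is the gene, and red is P17-only H3K27ac. The 18 P17-only peaks of Car10 lie between sparse P2 peaks, and the 27.81 kb peak of Tmem108 covers its 5′ end together with P17 H3K4me3 and P17 SOX9.

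On the X chromosome 140 of 574 P17 H3K27ac peaks were P17-only (24.4%, 21.1 to 28.1%), whereas the autosomes ranged from 9.07% on chromosome 4 to 14.4% on chromosome 13 and gave 11.6% pooled. Chromosome Y had 3 P17 H3K27ac peaks, all P17-only. P2 H3K27ac peaks covered 3.0% of the X span and 18.4 to 24.9% of the span of each autosome, and P17 peaks covered 1.51% of the X span. Of protein-coding genes on the X, 9.01% had a P17-only peak, against 10.4% on the autosomes, and 32.4% had any P17 H3K27ac, against 58.9%. The X-linked P17-only peaks had a median width of 2894 bp against 2545 bp on the autosomes. Of the 52 P17-only peaks of at least 10 kb, 7 were on the X, at Ammecr1, Ppef1, Rai2, Kdm5c, Mtmr1 and 2 sites outside protein-coding genes. P17 H3K4me3 overlapped 7 of the 140, and SOX8 or SOX9 overlapped 0 of 140, which allows a share of up to 2.14% if a count of 0 is taken to allow 3. The genes of the X named here were chosen by width after their values were seen.

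**Figure D4:**
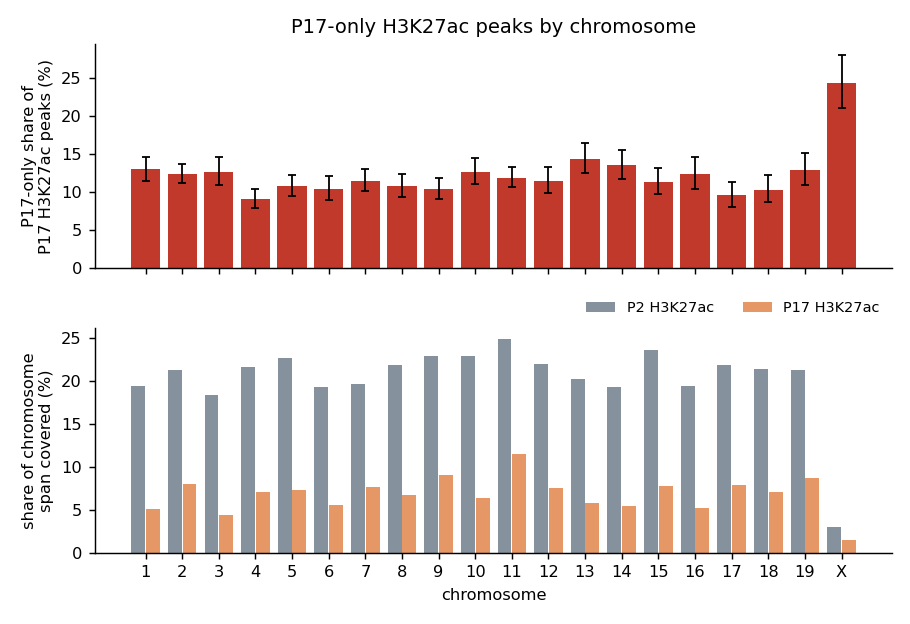
Upper panel, share of P17 H3K27ac peaks that were P17-only (percent) by chromosome, with 95% Wilson intervals over peaks. Lower panel, share of the chromosome span (percent) under P2 (grey) and P17 (orange) H3K27ac peaks. Chromosome Y, with 3 peaks, is not drawn. Among the chromosomes drawn, X has the highest bar above (24.4%) and the lowest bars below (3.0% and 1.51%).

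Across 22 lists of retinal genes, 77 of 395 genes (19.5%) had a P17-only peak, against 10.2% of all protein-coding genes. The genes of the lists had a median length of 24.4 kb. The share ran from 40.0% of bipolar cell genes and 33.3% of ribbon synapse genes down to 8.33% for photoreceptor lipids and 7.14% each for pigment epithelium, lens and microglia, and the lists of Müller glia, progenitors and vascular cells had none. Within 50 kb, 132 list genes had one, against 24.5% of all genes. These shares were not tested. If a count of 0 is taken to allow 3, the Müller glia, progenitor and vascular lists, of 28, 22 and 12 genes, are not placed below 10.2%.

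For rod phototransduction, 6 of 21 genes had a P17-only peak, all 21 had some P17 H3K27ac, and 13 had H3K4me3 at P17 and not at P2. Gngt1 had the widest, at chr6:3986956-4000226, over its start and with H3K4me3 at P17 only. That peak lay 678 bp from the nearest P2 H3K27ac peak and also held a start of Tfpi2. With no P2 peak allowed within 1 kb, 5 of the 21 genes had a P17-only peak. Pde6a and Pde6b, the catalytic subunits of the rod phosphodiesterase, had peaks of 8312 and 4614 bp and of 3670 bp. The 8312 bp peak lay 3 bp from a P2 H3K27ac peak. Cnga1 and Cngb1, the subunits of the rod cyclic nucleotide-gated channel, had peaks of 5812 and 2845 bp. Pdc, which encodes phosducin, had 2, one of them of 1808 bp with H3K4me3 at P17 only. The cone list had 2 of 11, Opn1mw, the green opsin gene, and Gnat2, the cone transducin alpha subunit gene.

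Outer segment and cilium genes had P17-only peaks in 7 of 24 cases. They included Pcdh15, Rp1 (5 peaks), which encodes an axonemal protein, Rpgrip1 (4), a connecting cilium scaffold gene, Mak, a ciliary kinase gene, and Impg1 and Impg2, which encode proteoglycans of the interphotoreceptor matrix. Among photoreceptor transcription factors 3 of 16 had one, namely Prdm1, Rorb and Mef2c, and the Mef2c peak of 4789 bp lay over a start without H3K4me3. Channels and transporters of photoreceptors had them in 5 of 17. Among them Ano2, a calcium-activated chloride channel gene, had 4, of 1077 to 3302 bp, and Atp2b1, a plasma membrane calcium pump gene, had 1 of 2064 bp. The visual cycle list had 2 of 14, Abca4, the outer segment retinoid flippase gene, and Rdh11, a retinol dehydrogenase gene.

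Ribbon synapse genes had P17-only peaks in 8 of 24 cases, with a median gene length of 63.1 kb. Cacna1f had 4, the first of 7147 bp over its start at chrX:7603943-7611089 with H3K4me3 at P17 only. A start of Ccdc22 lay in the same peak. Cacnb2 had 10, one of 5980 bp over an internal start without H3K4me3. Rims2, an active zone scaffold gene, had 7, of 1130 to 8460 bp, and Stx3, the ribbon synapse syntaxin gene, had 3. Cacna2d4, Egflam, Syt1 and Syp were the others; the Syp peak was also counted for its neighbour Cacna1f.

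Bipolar cell genes had the largest share of the 22 lists under the rule used here, 10 of 25, at a median gene length of 25.6 kb; against the widest P2 peaks alone they had 14 of 25, a smaller share than the 15 of 21 rod phototransduction genes. Isl1, a LIM-homeodomain factor of ON bipolar and other inner retinal neurons, had 3, lying 28344 to 46189 bp from the nearest P2 H3K27ac peak, 2 of them with H3K4me3 at P17 only. Grm6, the glutamate receptor of ON bipolar dendrites, had one of 3897 bp at chr11:50854013-50857909, again with H3K4me3 at P17 only. Cabp5 had 2, one over its start and 31483 bp from the nearest P2 peak. Rgs7, which shuts off the G protein of that receptor, had 6, and Gnao1, the G protein alpha subunit itself, had 1. Prkca, Bhlhe23, Lhx4, Car8 and Gabrr1 completed the list.

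Neurotransmitter receptor genes had P17-only peaks in 9 of 28 cases, at a median gene length of 218 kb. P17-only peaks made up 30.7% of the P17 H3K27ac bases at these genes, against 5.16% over all protein-coding genes. This was the highest of the 22 lists on that measure, chosen after its value was seen. The same share was 28.4% for microglia and 23.6% for erythroid cells, each with 1 gene at a P17-only peak. For ganglion cell and lens genes it was 12.4% and 12.1%. It was 7.01% for rod phototransduction, 7.33% for ribbon synapse, 7.96% for outer segment and cilium, 10.5% for bipolar cell and 1.91% for photoreceptor transcription factor genes. Glra1, the glycine receptor alpha 1 subunit gene, had 5, of which 2 carried H3K4me3 at P17 only. Grin2a had one of 2023 bp with H3K4me3 at P17 only and SOX9. Gria1, Gria2, Grm8 and Gabrr3 were also among them.

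Metabolic and clock lists had P17-only peaks as well. Of 22 genes of glycolysis and energy metabolism 5 had one, with 5 peaks at Esrrg, an orphan nuclear receptor gene, 3 at Ppargc1a, a coactivator gene of mitochondrial biogenesis, 2 at Ldha, and 1 each at Ldhb and Eno2. Of 18 circadian genes 5 had one, at Clock, Arntl, Per1, Per2 and Hlf. The Hlf peak of 5089 bp lay over its start with H3K4me3 at both ages and SOX9 at P17 only. In the list of photoreceptor lipids Fabp12 was the 1 gene of 12.

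No gene of the Müller glia list had a P17-only peak within 5 kb; 1 did within 50 kb, and 2 were the protein-coding gene nearest to one. All 28 genes had P2 H3K27ac and 17 had P17 H3K27ac, each of those P17 peaks overlapping a P2 peak. H3K4me3 was listed at 23 of them at P2 and 13 at P17, and none had it at P17 alone. P17 SOX9 peaks lay at 3. The progenitor list likewise had none of 22 within 5 kb and 1 within 50 kb. P2 H3K27ac was listed at all 22, P17 H3K27ac at 10, and H3K4me3 at 21 at P2 and 6 at P17. The progenitor genes had a median length of 9.07 kb, and 3.74% of all genes under 10 kb had a P17-only peak. Against the widest P2 peaks alone, where 45.7% of all genes counted, 5 Müller glia genes, 2 progenitor genes and 15 of 21 rod phototransduction genes did.

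The lists of other cells of the eye had shares of 0 to 25%. Amacrine and horizontal cells had 4 of 24 (Tfap2b, Ptf1a, Meis2 and Ebf3), ganglion cells 3 of 20 (Nefh, Opn4 and Jam2), and astrocytes and oligodendrocytes 3 of 12 (Gfap, Pax2 and Mobp). Pigment epithelium (Krt18), lens (Cryba1), microglia and erythroid cells (Alas2) had 1 each, of 14, 14, 14 and 8, and vascular cells 0 of 12, with 3 of 12 within 50 kb. Any P17 H3K27ac was listed at 5 of 14 pigment epithelium genes, 7 of 14 lens genes, 3 of 14 microglial genes, 4 of 12 vascular genes and 2 of 8 erythroid genes, and the part of such cells in these peaks was not tested.

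**Figure D5:**
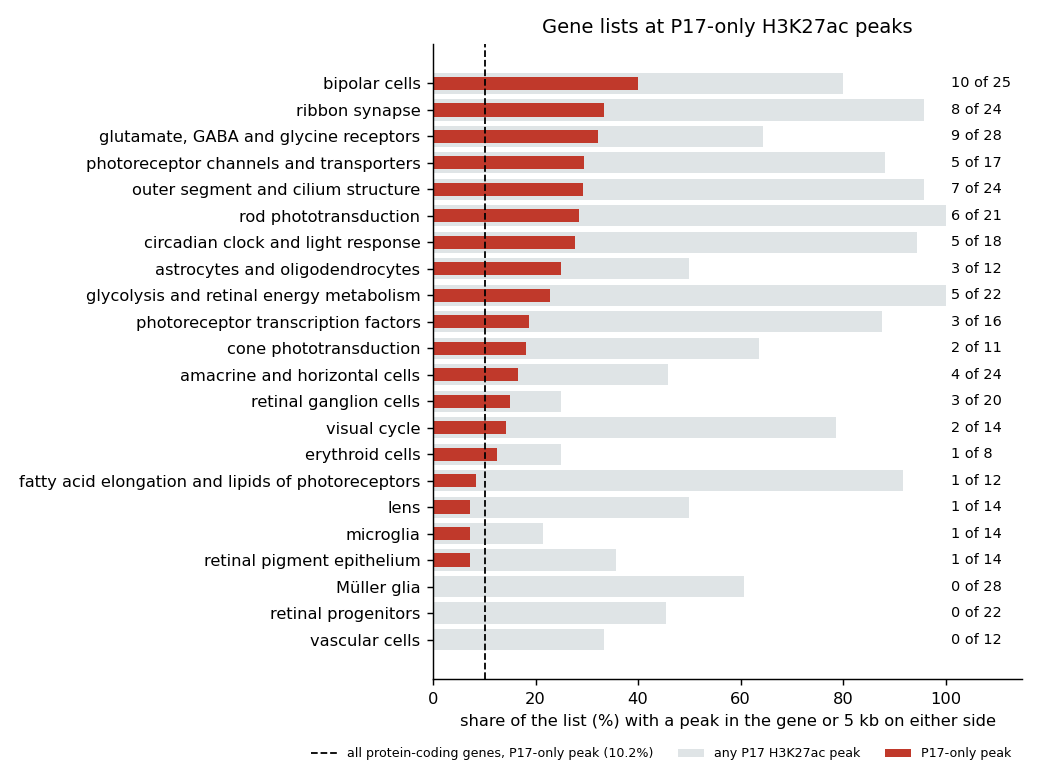
Share of each of 22 gene lists (percent, horizontal axis) with a P17-only H3K27ac peak (red) or any P17 H3K27ac peak (light grey) in the gene or within 5 kb, with the count at the right. The dashed line is the 10.2% of all protein-coding genes with a P17-only peak. Under the rule used here bipolar cells are highest with 10 of 25, and Müller glia, progenitors and vascular cells are at 0. If a count of 0 is taken to allow 3, these lists of 28, 22 and 12 genes are not placed below the dashed line.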

How the data were processed

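Peak lists were used as deposited, 1 BED file per target and age, with the 2 SOX8 antibodies in 1 combined file. Positions are in GRCm38, and Bowtie2 and SEACR are named, per the submitters' processing notes; versions, settings, the use of IgG and how libraries were combined are not given in the sources used here. The score column deposited by the authors is 0 in every peak, so no height was used. No count of reads per peak was analysed, and the depth is unknown. A P17 H3K27ac peak with no P2 H3K27ac peak sharing 1 bp was a P17-only peak, and other overlaps used the same 1 bp minimum. Genes and starts came from RefSeq GRCm38.p6, with 395 of 396 list genes matched. Named regions were the 10 widest P17-only peaks, and the widest with both SOX factors, with H3K4me3, and with SOX9 without H3K4me3, up to 10 each. Named genes were the 10 with most P17-only peaks and the list genes. Some list genes are counted but not reported by name here. The members and lists were chosen with earlier results of these data known. Alternatives changed the overlap rule, peak widths, the P2 list, chromosomes and the gene window. Overlap functions were tested on simulated data. Python 3.11.15, numpy 2.4.6, pandas 2.3.3 and scipy 1.17.1 were used.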

Additional observations from a re-analysis of the deposited data

How the results depend on the processing

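The number of P17-only peaks was 3544, and 18719 when the P2 list was limited to its 29909 widest peaks; the other rules gave 2751 to 4133. Of 37 alternatives for differences in share, 34 kept their direction and 22 lay within the interval of the reported value. The 3 that reversed all used the widest P2 peaks: P17 H3K4me3 went from -26.4 to 9.70 points, P2 H3K4me3 from -26.1 to 7.09 and a gene start within 1 kb from -15.1 to 14.6. The same setting gave -5.48 for SOX8, -7.47 for SOX9, 3.10 for the share without P2 H3K4me3 and 162 list genes. With peaks trimmed to 500 bp the differences were -22.1 (P17 H3K4me3), -21.3 (P2 H3K4me3), -4.11 (SOX8) and -5.35 (SOX9). With comparison peaks weighted to matching widths they were -23.6, -24.0, -3.93 and -4.59. A start inside the peak gave -22.9, and a 50 kb flank gave 132 list genes instead of 77. The cause was not tested. The gene-list alternatives with a 1 kb gap or the widest P2 peaks, and all those for the share without P2 H3K4me3, were chosen after seeing the data. No paired analysis was possible because no list names a replicate, and for the same reason no replicate could be left out. Depth is unknown, so absence from the P2 list does not show that acetylation was absent.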

Other observations

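Of 1005 microRNA hairpins, 8 (0.796%) lay in P17-only peaks and 189 (18.8%) in comparison peaks. The 2 sets differ in size, at 10.9 and 163 Mb, and P17-only peaks held 6.26% of the P17 H3K27ac bases. The counts are therefore not a contrast between the sets. Mir212 and Mir132 shared 1 peak of 2636 bp, chr11:75171966-75174601, with H3K4me3 at both ages and no SOX8 or SOX9 at P17, and their 3p arms share a seed. That peak overlapped a P2 SOX9 peak and lay 947 bp from the nearest P2 H3K27ac peak. Mir7b lay in a peak of 2760 bp, chr17:56240693-56243452, with H3K4me3 at P17 and not at P2. These hairpins were named after their values were seen. Their mature sequences from RefSeq are given because the first 2 show the shared seed, bases 2 to 8, which is in capitals.

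miR-212-3p: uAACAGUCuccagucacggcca
miR-132-3p: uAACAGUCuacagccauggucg
miR-7b-5p: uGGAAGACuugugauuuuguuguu

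miR-132 and miR-212 are known as activity-regulated neuronal microRNAs. The remaining hairpins were Mir1955, Mir7227, Mir7047, Mir5624 and Mir1904, and of the 7 P17-only peaks that held a hairpin, 3 carried P17 H3K4me3. No level of a mature microRNA was measured here.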
